A study of Arabidopsis thaliana with 90 samples.

Results

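The 10 genes described here belong to the synthesis of aliphatic glucosinolates, the methionine-derived sulfur-rich defence compounds of Arabidopsis thaliana, and were taken as a fixed list of gene names from a table of 28775 genes. They are the regulators MYB28, MYB29 and MYB76, the chain elongation genes BCAT4 and MAM1, the core structure genes CYP79F1, CYP79F2, CYP83A1 and SOT18, and the side chain gene FMO GS-OX1. Read counts were available for 90 libraries of 4-day-old seedlings, in 30 groups of 3 replicates. Each of 5 lines was grown in darkness at 27 °C or 17 °C and harvested without light, after 1 h of red light (R) or after 24 h R. All lines are in the Landsberg erecta (Ler) background and carry phyA, phyD and phyE mutations, so their endogenous phytochromes A, D and E are not functional.

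In PHYD-YFP/abcde, all 5 phytochrome genes are mutated (phyA-201 phyB-1 phyC-1 phyD-1 phyE-1) and the 35S promoter drives a PHYD-YFP fusion in a single highly expressing line. PHYD-YFP/abCde carries the same fusion with phyC intact. In aBcde, endogenous phyB is the sole functional phytochrome. PHYB-CFP/abcde carries a PHYB-CFP fusion under the PHYB promoter in the quintuple mutant, and PHYB-CFP, PHYD-YFP/abcde (the two-transgene line) carries both fusions there. A wild type and the quintuple mutant without a transgene were not analysed here. The age of the dark seedlings relative to those after 24 h R is not given, so light and age cannot be told apart.

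Aliphatic glucosinolates are built in 3 stages. Methionine is first lengthened by cycles of transamination, condensation, isomerisation and decarboxylation, then converted through an aldoxime to the core glucosinolate, and the side chain is finally oxidised. The R2R3-MYB factors MYB28, MYB29 and MYB76 switch on the structural genes together with MYC2, MYC3 and MYC4, and MYB28 is known as the main regulator of long-chain products. Indolic glucosinolates are made from tryptophan by a parallel pathway under MYB34, MYB51 and MYB122, and myrosinases release the toxic products of both kinds.

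Depth was 15010386 to 41124234 counts per library, with a median of 17751738. A count of 0 therefore allowed a level of up to 0.2 CPM (counts per 1000000 counts of the library) in the shallowest library, taking 3 counts as the floor; such floors and the intervals below cover counting error only. PHYD was at 3850 to 37500 CPM in the 3 lines with PHYD-YFP, against 11.8 to 588 CPM in aBcde and 12.9 to 171 CPM in PHYB-CFP/abcde. It was higher in PHYD-YFP/abCde than in PHYD-YFP/abcde. The dark means were 32564 and 10001 CPM at 27 °C, and 15427 and 4405 CPM at 17 °C, in that order of lines. These 2 lines thus differ in PHYD RNA as well as in phyC, and the 2 cannot be told apart in comparisons between them. PHYB was at 195 to 1640 CPM in the lines with PHYB-CFP, against 47.8 to 179 CPM in the other lines. The highest PHYD value of aBcde, 588 CPM, was in replicate 1 of 27 °C and 24 h R, where the other replicates had 31.9 and 14.2 CPM. The calls of MYB28 and SOT18 were therefore also checked without this library, but results of other genes are not given without it. In aBcde at 27 °C and 1 h R, PHYD was at 17.9, 88.5 and 147 CPM over the replicates, ordered by level. In darkness at 17 °C it reached 107 CPM in aBcde, with a median of 17.3 CPM. No fit left out these further libraries alone. Replicate 3 of PHYD-YFP/abCde at 17 °C and 1 h R stood apart from its fellow replicates, and no call of MYB28 or SOT18 was lost without it. Replicate 1 of this line at 17 °C and 24 h R also stood apart. Its root mean square differences in log2 CPM were 0.855 and 0.843, against 0.526 between the other replicates. A fit without this library alone was not run. PIL1, a gene repressed by active phytochrome, had group means at 27 °C of 64.1 to 83.1 CPM without light, 2.21 to 42.3 CPM at 1 h and 0.855 to 47.7 CPM at 24 h of R.

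The positions of the 10 genes are given on TAIR10.1, with strand. MYB28 (AT5G61420) lies on chromosome 5 at 24689069 to 24691187 on the minus strand, and MYB29 (AT5G07690) and MYB76 (AT5G07700) lie next to each other on chromosome 5 at 2446669 to 2448584 and 2450027 to 2451807 on the plus strand. BCAT4 (AT3G19710) is on chromosome 3 at 6846969 to 6849582 (minus), and MAM1 (AT5G23010) on chromosome 5 at 7703041 to 7706973 (plus). The closely related CYP79F2 (AT1G16400) and CYP79F1 (AT1G16410) lie side by side on chromosome 1 at 5605044 to 5607498 and 5608682 to 5612064 (plus). CYP83A1 (AT4G13770) is on chromosome 4 at 7990429 to 7992429 (minus), SOT18 (AT1G74090) on chromosome 1 at 27862814 to 27864193 (plus) and FMO GS-OX1 (AT1G65860) on chromosome 1 at 24498954 to 24502776 (minus).

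The 250 bases before the annotated start of MYB28 and SOT18, the members with enough reads for a test, and of CYP83A1, the member with a full G-box, are given here from the Columbia reference (RefSeq, TAIR10.1), 5′ to 3′ on the gene's own strand. They lie at chr5:24691188-24691437 (MYB28), chr1:27862564-27862813 (SOT18) and chr4:7992430-7992679 (CYP83A1). Capitals mark matches to the G-box CACGTG, to CACATG or to the shorter ACGTG, on either strand. The G-box is bound by MYC factors and by the phytochrome-interacting factors. The capitals in the MYB28 window are the shorter ACGTG alone, without a full G-box. The Ler sequence may differ.
MYB28: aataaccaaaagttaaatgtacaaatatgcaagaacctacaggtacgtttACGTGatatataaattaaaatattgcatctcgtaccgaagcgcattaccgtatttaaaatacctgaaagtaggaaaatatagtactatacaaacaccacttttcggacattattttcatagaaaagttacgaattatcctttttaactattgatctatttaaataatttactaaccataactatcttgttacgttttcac
SOT18: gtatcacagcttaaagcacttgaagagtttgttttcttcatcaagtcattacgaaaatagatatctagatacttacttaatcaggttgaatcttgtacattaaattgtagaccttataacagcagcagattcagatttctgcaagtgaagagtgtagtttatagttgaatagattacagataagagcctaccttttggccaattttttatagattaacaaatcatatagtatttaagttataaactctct
CYP83A1: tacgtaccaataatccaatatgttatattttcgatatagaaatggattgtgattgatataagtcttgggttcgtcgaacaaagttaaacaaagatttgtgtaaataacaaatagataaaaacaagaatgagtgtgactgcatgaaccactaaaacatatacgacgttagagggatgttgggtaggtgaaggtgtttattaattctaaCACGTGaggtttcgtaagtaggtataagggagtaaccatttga
The full G-box CACGTG, which reads the same on both strands, was found in 1 of the 10 windows, 43 bases before the start of CYP83A1, and in 6.49% of 27443 windows of this length. The shorter ACGTG or its reverse CACGT, which the full G-box also contains, was found in 5 of 10 windows (MYB28, MYB76, CYP79F2, CYP83A1 and FMO GS-OX1), against 22.91% of all windows. CACATG or its reverse CATGTG was found in 1 of 10, FMO GS-OX1, against 11.09%. SOT18 held none of these letters in its window. The matches are a description of the letters and no measure of binding.

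Most of the 10 genes were at or near 0 in these seedlings. Of the 10 genes, 2 had at least 5 counts in at least 23 libraries and could be tested, SOT18 with 90 such libraries and MYB28 with 67. The other 8 had 97 counts together among 1675499967 counts, 12 of them in darkness, 17 after 1 h R and 68 after 24 h R. The plot of read counts per library shows this gap.

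**Figure D1:**
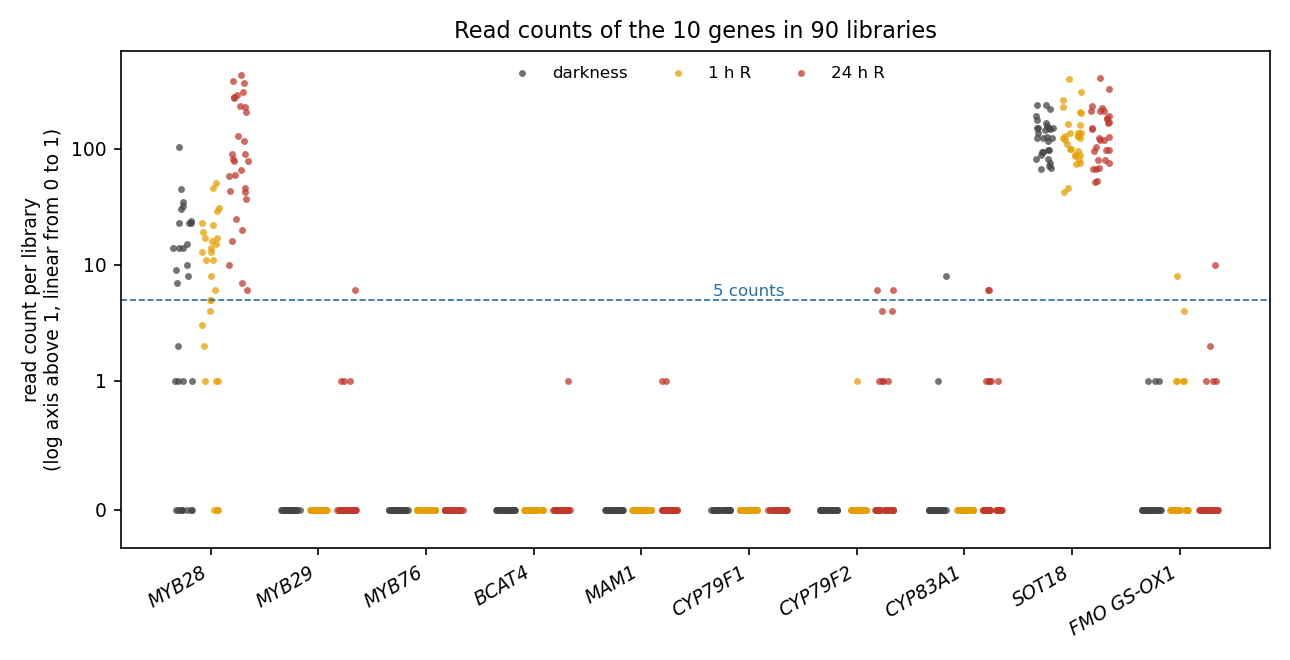
Read counts of the 10 genes (x axis) in each of 90 libraries (points; y axis, counts on a log scale above 1 and linear from 0 to 1), in darkness, after 1 h R and after 24 h R; the dashed line marks 5 counts. SOT18 lies above the line in 90 libraries and MYB28 in 67 at or above it, while the highest library of any of the other 8 genes has 10 counts.

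Among the regulators, MYB76 had 0 counts in all 90 libraries, which allows at most 3 counts in the 1675499967 of all libraries. MYB29 had 9 counts, all after 24 h R at 17 °C, 6 of them in replicate 3 of PHYB-CFP/abcde. Of the chain elongation genes, BCAT4, the methionine aminotransferase, had 1 count and MAM1, a methylthioalkylmalate synthase, had 2. Ler is known to carry the related MAM2 at this locus, so the MAM1 count may not describe the Ler locus. Among the core genes, CYP79F1, which makes aldoximes from elongated methionine, had 0 counts, and its neighbour CYP79F2 had 25, of which 24 fell after 24 h R in 8 libraries, 6 at 27 °C and 18 at 17 °C. CYP83A1, which oxidises the aldoximes, had 26 counts, 8 of its 9 dark counts in a single library (PHYB-CFP/abcde, 17 °C, replicate 3) and 1, 6 and 6 counts after 24 h R in aBcde at 17 °C. FMO GS-OX1, an S-oxygenase of the side chain, had 34 counts, 27 at 27 °C and 7 at 17 °C, with at most 10 in a library.

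The sequences of the 10 genes are nearly all unique in the genome. Of all 50-base windows in the transcripts, 100% were unique in the genome for 7 of the 10 genes, 99.7% for FMO GS-OX1, 97.9% for CYP79F1 and 97.1% for CYP79F2. The coding sequences of CYP79F1 and CYP79F2 were 91.9% identical, so counts of this pair are less certain. Of their 100-base windows, 2445 of 2446 were unique for CYP79F1 and 1720 of 1721 for CYP79F2. Of the 12 neighbouring genes of the 8 untested members, 7 had a median of at least 5 counts per library, and AT4G13780 beside CYP83A1 had a median of 2582. When the filter on low counts was dropped, CYP83A1 was the only one of the 8 to pass the test in any comparison, after 24 h R in aBcde at 17 °C (log2 fold change 5.25, edgeR adjusted p 0.0404).

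MYB28 was low in darkness and higher after 24 h R in every line, with the highest levels at 17 °C. It had 4926 counts in all, 435 in darkness, 384 after 1 h R and 4107 after 24 h R. A difference was counted as a rise or a fall when it was at least 2-fold with a Benjamini-Hochberg adjusted p under 0.05 in edgeR's quasi-likelihood test over 20695 genes. By this measure MYB28 rose after 24 h R in 9 of 10 comparisons with darkness. SOT18 rose in none of the 10, and neither gene fell in any, where 3.14% of all tests over the 10 comparisons were falls. At 27 °C, the share of all genes tested that rose was 3.02% for PHYD-YFP/abcde, 7.56% for PHYD-YFP/abCde, 11% for aBcde, 9.48% for PHYB-CFP/abcde and 9.23% for the two-transgene line. At 17 °C it was 2.91%, 8.18%, 12%, 5.6% and 10.4% in the same order of lines. The replicates of MYB28 after 24 h R lay above those in darkness with no overlap in 10 of 10 comparisons, as did those of 22.1% of all genes over these comparisons (13.9% to 27.2%).

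At 27 °C, MYB28 in PHYD-YFP/abcde was at 0, 0.0652 and 0 CPM in darkness, 0.266, 0.37 and 0.369 CPM after 1 h R and 0.52, 0.353 and 0.33 CPM after 24 h R. The PHYD-YFP/abCde libraries were at 0.427, 0 and 0 CPM in darkness, 0.13, 0 and 0 CPM after 1 h R and 2.73, 2.15 and 1.12 CPM after 24 h R. In aBcde it was at 0.123, 0 and 0 CPM in darkness, 0.852, 0.923 and 0.0536 CPM after 1 h R and 8.07, 6.0 and 5.42 CPM after 24 h R. These lines were thus at or close to 0 in darkness, and aBcde reached the highest level after 24 h R. In PHYB-CFP/abcde it was at 0, 0.534 and 0.0504 CPM in darkness, 0.049, 0.0743 and 0 CPM after 1 h R and 2.77, 2.43 and 2.32 CPM after 24 h R. In the two-transgene line it was at 0.0691, 0 and 0.0581 CPM in darkness, 0, 0.0581 and 0.22 CPM after 1 h R and 0.987, 1.83 and 3.30 CPM after 24 h R. The 24 h libraries of both lines lay above all of their dark and 1 h libraries.

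At 17 °C, the dark levels were higher, and every 24 h library again lay above the dark libraries of its line. In PHYD-YFP/abcde MYB28 was at 2.02, 1.44 and 0.527 CPM in darkness, 0.785, 1.04 and 0.623 CPM after 1 h R and 4.37, 3.73 and 3.20 CPM after 24 h R. The PHYD-YFP/abCde libraries were at 1.20, 5.07 and 1.66 CPM in darkness, 2.53, 2.62 and 1.85 CPM after 1 h R and 17.8, 12.7 and 14.3 CPM after 24 h R. In this line, dark replicate 2 stood above the other dark libraries. In aBcde MYB28 was at 1.20, 2.76 and 1.61 CPM in darkness, 1.43, 0.801 and 0.314 CPM after 1 h R and 21.5, 25 and 22.1 CPM after 24 h R. In PHYB-CFP/abcde it was at 0.716, 0.868 and 0.742 CPM in darkness, 0.705, 1.29 and 1.47 CPM after 1 h R and 4.77, 5.29 and 6.99 CPM after 24 h R. In the two-transgene line it was at 1.45, 0.534 and 0.911 CPM in darkness, 0.926, 0.653 and 1.11 CPM after 1 h R and 13.0, 18.5 and 16.1 CPM after 24 h R. The 24 h levels of aBcde were the highest of all 30 groups.

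**Figure D2:**
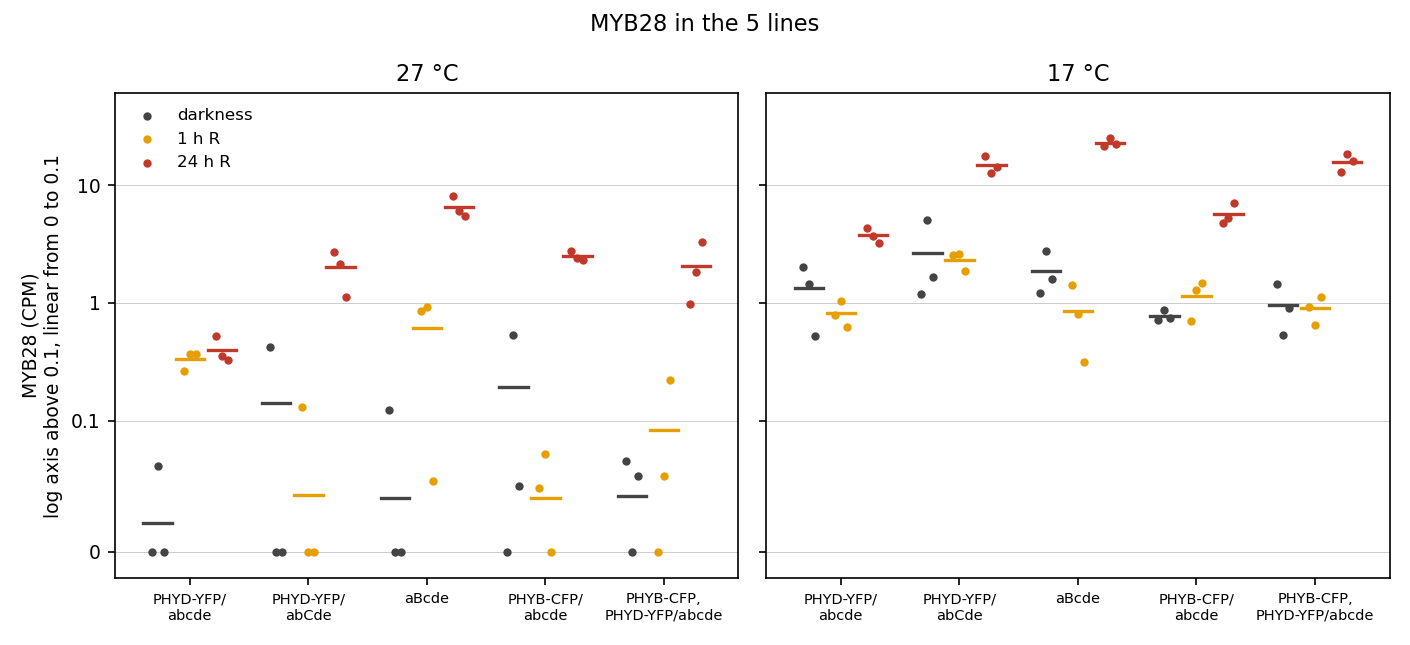
MYB28 in CPM (y axis, log above 0.1 and linear from 0 to 0.1) by line (x axis) at 27 °C (left) and 17 °C (right), with 1 point per library and a bar at the mean of 3 replicates, in darkness, after 1 h R and after 24 h R. After 24 h R the libraries range over 0.33 to 8.07 CPM at 27 °C and 3.2 to 25 CPM at 17 °C.

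At 17 °C, the log2 fold change of MYB28 after 24 h R was 4.02 in the two-transgene line (SE 0.57, edgeR adjusted p 1.82e-08) and 3.63 in aBcde (SE 0.53, adjusted p 5.24e-08). It was 2.87 in PHYB-CFP/abcde (SE 0.56, adjusted p 5e-05) and 2.49 in PHYD-YFP/abCde (SE 0.51, adjusted p 5.81e-05). In PHYD-YFP/abcde it was 1.49 (SE 0.53) and did not pass the test (adjusted p 0.0523), although it passed in DESeq2 (adjusted p 0.0185), in edgeR fitted to its own libraries (adjusted p 0.0444) and in edgeR without replicate 3 of PHYD-YFP/abCde at 17 °C and 1 h R (adjusted p 0.0451). All 5 lines had 3 of 3 replicates above darkness.

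At 27 °C, the log2 fold change was 7.07 in aBcde (SE 0.84, edgeR adjusted p 1.15e-10), 5.41 in the two-transgene line (SE 0.90, adjusted p 1.6e-06), 3.73 in PHYD-YFP/abCde (SE 0.73, adjusted p 4.45e-05) and 3.67 in PHYB-CFP/abcde (SE 0.67, adjusted p 1.06e-05). The dark groups held only 1 to 11 counts over 3 libraries, so the size of these changes is loosely set. The ratio of summed counts in aBcde was 166, with an exact 95% counting interval of 45.7 to 1370, that in the two-transgene line was 50.6 (13.6 to 424) and that in PHYB-CFP/abcde was 13.2 (7.14 to 27.1). In PHYD-YFP/abcde the log2 fold change was 3.97 (SE 1.20, adjusted p 0.029) and the count ratio 21 (3.41 to 865). This last call was lost when any 1 replicate number was left out, with adjusted p of 0.0721 to 0.228, and also in a fit to the libraries of this comparison alone (adjusted p 0.12) and in a fit of 54 libraries of 3 lines (adjusted p 0.0503).

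After 1 h R, MYB28 rose in 1 of 10 comparisons, aBcde at 27 °C (log2 fold change 3.66, SE 1.03, edgeR adjusted p 0.0206), where 1.01% of all genes tested rose (1.03% over the 10 comparisons). There the replicates overlapped with darkness, since replicate 3 had 0.0536 CPM, and the call was lost without replicate 1 (adjusted p 0.0579) or replicate 2 (adjusted p 0.428) and in a fit to the libraries of this comparison alone (adjusted p 0.29). In PHYD-YFP/abcde at 27 °C, the 3 libraries after 1 h R all lay above darkness, with a log2 fold change of 3.71 that did not pass (adjusted p 0.18). At 17 °C the 5 log2 fold changes after 1 h R were -1.11 to 0.58, and none passed. SOT18 passed in none of the 10 comparisons, and no member fell, where 0.799% of all tests over the 10 comparisons were falls.

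The 2 tested genes differed between temperatures in opposite directions. MYB28 was lower at 27 °C than at 17 °C in all 15 comparisons of the same line and light, and 13 of these passed the test. SOT18 was higher at 27 °C in all 15 and passed in 5. MYB28 had 957 counts at 27 °C and 3969 at 17 °C, and SOT18 had 8454 at 27 °C and 4169 at 17 °C.

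In darkness, MYB28 fell at 27 °C in 5 of 5 lines, where the share of all genes that fell was 14.3% for PHYD-YFP/abcde, 16.6% for PHYD-YFP/abCde, 15.5% for aBcde, 14.1% for PHYB-CFP/abcde and 13.3% for the two-transgene line. It was at 0 in 8 of 15 dark libraries at 27 °C, which ranged up to 0.534 CPM, against 0.527 to 5.07 CPM at 17 °C. The log2 fold changes were -5.68 for PHYD-YFP/abcde (edgeR adjusted p 3.25e-06), -4.12 for PHYD-YFP/abCde (adjusted p 1.45e-06), -5.25 in aBcde (adjusted p 1.23e-06), -1.98 in PHYB-CFP/abcde (adjusted p 0.0188) and -4.33 in the two-transgene line (adjusted p 0.00016). As ratios of summed counts at 27 °C over 17 °C, with exact 95% counting intervals, these were 0.0144 (0.000358 to 0.0828) in PHYD-YFP/abcde, with 1 count at 27 °C, 0.023 (0.00275 to 0.0854) in aBcde and 0.0425 (0.005 to 0.163) in the two-transgene line, with 2 counts each. The call in PHYB-CFP/abcde was lost without replicate 1 (adjusted p 0.133) or replicate 3 (adjusted p 0.104) and in a fit to the libraries of this comparison alone (adjusted p 0.0763). After 1 h R, MYB28 fell at 27 °C in 3 of 5 lines (all genes 11.6%, 15.2%, 14.1%, 13.5% and 11.9% in the same order of lines), with log2 fold changes of -5.63, -4.42 and -3.15 in PHYD-YFP/abCde, PHYB-CFP/abcde and the two-transgene line. PHYD-YFP/abCde had 2 counts at 27 °C there, for a ratio of 0.0172 (0.00205 to 0.0632). In aBcde (-0.48, adjusted p 0.537) and PHYD-YFP/abcde (-1.27, adjusted p 0.108) it did not pass.

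After 24 h R, MYB28 fell at 27 °C in 5 of 5 lines, where 13%, 12.5%, 13%, 11% and 12.3% of all genes fell in that order of lines. The replicates of the 2 temperatures did not overlap in any line, which held for 28.5% of all genes in this direction. The log2 fold changes were -3.21 in PHYD-YFP/abcde (edgeR adjusted p 6.89e-06), -2.88 in PHYD-YFP/abCde (adjusted p 3.43e-06), -1.81 in aBcde (adjusted p 0.00127), -1.18 in PHYB-CFP/abcde (adjusted p 0.0457) and -2.94 in the two-transgene line (adjusted p 3.18e-06). The call in PHYB-CFP/abcde was lost when any 1 replicate number was left out (adjusted p 0.0582 to 0.173) and in limma on quantile-normalized values (log2 fold change -1.09, adjusted p 0.0997).

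Other markers also moved with temperature, though not alike in every line. LHCB1.3, a light-harvesting antenna gene, had dark group means of 51.7 to 160 CPM at 27 °C and 1370 to 3720 CPM at 17 °C, and 755 to 11900 CPM at 27 °C and 6050 to 16400 CPM at 17 °C after 24 h R. LHCB1.5, another antenna gene, had dark group means of 56.5 to 115 CPM at 27 °C and 208 to 926 CPM at 17 °C. After 24 h R, its mean was lower at 27 °C than at 17 °C in PHYD-YFP/abcde (606 and 3470 CPM) and PHYD-YFP/abCde (1525 and 7755). In PHYD-YFP/abCde the libraries overlapped, with 1012 to 1879 CPM at 27 °C and 956 to 13072.5 CPM at 17 °C. The LHCB1.5 mean was similar in aBcde (9507 and 9565), and higher at 27 °C in PHYB-CFP/abcde (9752 and 6316) and the two-transgene line (10257 and 8338). The 8 seed storage and oil body genes summed to dark group means of 497 to 4206 CPM at 27 °C and 8.4 to 755 CPM at 17 °C. In PHYB-CFP/abcde in darkness, this sum was 502 CPM at 27 °C (91.8 to 918 over the 3 libraries) and 347 CPM at 17 °C (324 to 381), so the libraries of the temperatures overlapped. The part of these marker genes in the MYB28 and SOT18 results was not tested. In bulk seedlings, fewer cells of a type and less RNA per cell cannot be told apart.

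The response of MYB28 to 24 h R differed between temperatures in 1 of 5 lines, aBcde, where it was larger at 27 °C by 3.45 on the log2 scale (SE 1.12, edgeR adjusted p 0.0348). In this line 3.94% of all genes had such a call (2.97% over the 5 lines). The dark level was 0 to 0.123 CPM at 27 °C, against 1.20 to 2.76 CPM at 17 °C, and the level after 24 h R was lower at 27 °C. The call was lost without replicate 2 (2.68, adjusted p 0.315) or replicate 3 (3.14, adjusted p 0.101) and without the aBcde library high in PHYD (3.25, adjusted p 0.0654), and also in limma (1.61, adjusted p 0.202) and in the fit of 54 libraries of 3 lines (3.44, adjusted p 0.0541). In the other 4 lines the difference was 0.80 to 2.47 and did not pass.

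Between lines, no difference in MYB28 or SOT18 passed, neither in the 24 h R responses (8 comparisons, where 0.815% of all tests were higher and 0.93% lower) nor in darkness (10 comparisons, 1.15% higher and 1.02% lower). The levels after 1 h R or 24 h R themselves were not tested between lines. For SOT18, 3 of 5 comparisons in darkness at 17 °C had an unadjusted p under 0.05 in edgeR (lowest adjusted p 0.0983). Its replicates did not overlap in 1 of 5 dark comparisons at 17 °C and 3 of 5 at 27 °C. Per dark comparison, 7.17% to 17.5% of all genes lay apart upward and 6.54% to 16.9% downward. Of the MYB28 comparisons, 3 had an unadjusted p under 0.05 in edgeR. The 24 h R response of MYB28 at 27 °C differed by -3.34 on the log2 scale in PHYD-YFP/abCde relative to aBcde (p 0.0211, edgeR adjusted p 0.218) and by -3.41 in PHYB-CFP/abcde relative to aBcde (p 0.0113, adjusted p 0.723). Its dark level at 17 °C differed by -1.24 in PHYB-CFP/abcde relative to aBcde (p 0.0316, adjusted p 0.473). Ranked by mean MYB28 level, aBcde at 17 °C and 24 h R came first with 22.9 CPM, followed by the two-transgene line with 15.8 CPM and PHYD-YFP/abCde with 14.9 CPM at the same temperature and light. Only 3 of the 29 neighbouring pairs in the MYB28 order did not overlap.

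SOT18, a sulfotransferase that adds the sulfate group in the last step of the core structure, was present in every library, at 2.61 to 14.1 CPM. Its counts were 3958 in darkness, 4225 after 1 h R and 4440 after 24 h R. At 27 °C, SOT18 in PHYD-YFP/abcde was at 8.06, 8.09 and 6.87 CPM in darkness, 6.86, 9.47 and 7.63 CPM after 1 h R and 11, 7.41 and 10.1 CPM after 24 h R. At 17 °C, the same line was at 5.43, 4.86 and 3.98 CPM in darkness, 4.15, 4.38 and 2.61 CPM after 1 h R and 3.70, 3.41 and 4.73 CPM after 24 h R. Temperature thus separated these groups in every light condition, while light did not.

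PHYB-CFP/abcde had the largest SOT18 log2 fold changes between temperatures after 1 h R and after 24 h R, but not in darkness. At 27 °C, SOT18 was at 12.3, 12.7 and 11.2 CPM in darkness, 12.9, 9.90 and 14.1 CPM after 1 h R and 12.8, 13.2 and 10.5 CPM after 24 h R. At 17 °C, it was at 5.93, 7.99 and 7.85 CPM in darkness, 4.77, 5.59 and 5.07 CPM after 1 h R and 3.14, 4.00 and 6.45 CPM after 24 h R. In this line, too, the temperatures did not overlap in any light condition.

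At 27 °C, the SOT18 libraries of PHYD-YFP/abCde were at 8.90, 8.46 and 10.4 CPM in darkness, 7.77, 8.69 and 8.78 CPM after 1 h R and 9.78, 10.4 and 11.8 CPM after 24 h R. At 17 °C, they were at 4.91, 4.78 and 3.92 CPM in darkness, 4.32, 5.06 and 7.40 CPM after 1 h R and 5.60, 5.4 and 6.32 CPM after 24 h R. All 27 °C libraries lay above those of 17 °C in the same light.

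In aBcde at 27 °C, SOT18 was at 11.6, 9.52 and 10.04 CPM in darkness, 11.8, 8.64 and 12.2 CPM after 1 h R and 12.2, 11.6 and 11.2 CPM after 24 h R. At 17 °C, it was at 4.24, 10.9 and 4.92 CPM in darkness, 8.10, 6.72 and 8.16 CPM after 1 h R and 5.82, 7.29 and 4.84 CPM after 24 h R. A single dark library at 17 °C, replicate 2, reached the range of the 27 °C libraries. The two-transgene line at 27 °C was at 10.4, 7.40 and 8.77 CPM in darkness, 7.78, 8.01 and 7.6 CPM after 1 h R and 10.5, 8.63 and 8.40 CPM after 24 h R. At 17 °C it was at 4.73, 4.47 and 5.72 CPM in darkness, 5.73, 4.51 and 2.75 CPM after 1 h R and 4.99, 4.23 and 5.24 CPM after 24 h R. Its libraries at 27 °C lay above those at 17 °C in each light condition.

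**Figure D3:**
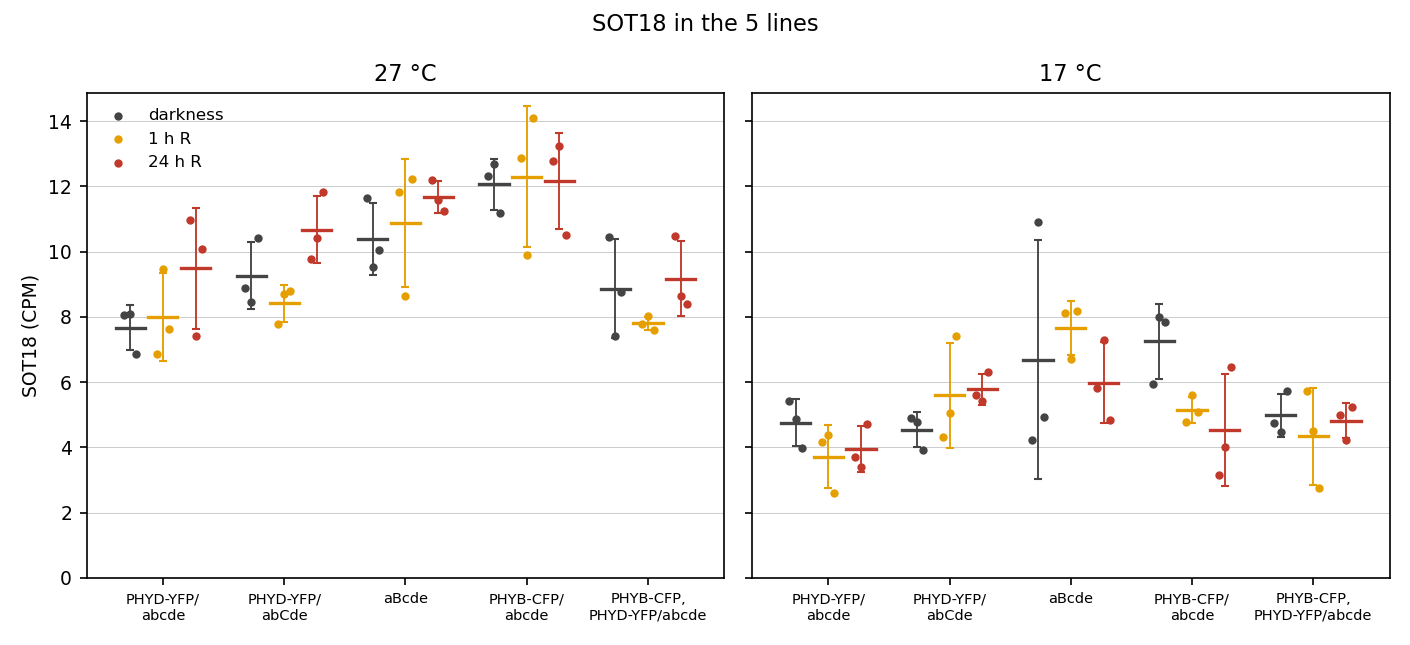
SOT18 in CPM (y axis, from 0) by line (x axis) at 27 °C (left) and 17 °C (right), with 1 point per library, a bar at the mean and an error bar of 1 SD over 3 replicates, in darkness, after 1 h R and after 24 h R. PHYB-CFP/abcde after 24 h R lies at 10.5 to 13.2 CPM at 27 °C and 3.14 to 6.45 CPM at 17 °C.

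SOT18 rose at 27 °C in 1 of 5 lines in darkness, 2 of 5 after 1 h R and 2 of 5 after 24 h R. In PHYD-YFP/abcde, PHYD-YFP/abCde, aBcde, PHYB-CFP/abcde and the two-transgene line, the share of all genes that rose was 10.6%, 13.1%, 11.1%, 9.6% and 9.17% in darkness, 9.36%, 10.3%, 11.3%, 9.97% and 9.98% after 1 h R, and 11.7%, 10.2%, 11.3%, 10.9% and 10.3% after 24 h R. The log2 fold change after 24 h R was 1.42 in PHYB-CFP/abcde (edgeR adjusted p 5.85e-07) and 1.26 in PHYD-YFP/abcde (adjusted p 5.98e-06). After 1 h R it was 1.25 in PHYB-CFP/abcde (adjusted p 4.61e-06) and 1.11 in PHYD-YFP/abcde (adjusted p 7.04e-05), and in darkness 1.03 in PHYD-YFP/abCde (SE 0.23, adjusted p 0.000119). In the other 10 comparisons it was 0.51 to 0.96, and 9 of these had an adjusted p under 0.05 but were under 2-fold. The groups did not overlap in 4, 5 and 5 of the 5 lines in darkness, after 1 h R and after 24 h R, where 32%, 28.5% and 30.8% of all genes did so in this direction. The call in darkness sat at the 2-fold limit, and was under 2-fold in DESeq2, with RLE scaling, in a fit to its own libraries (log2 fold change 0.99 in each), with no filter on low counts (0.995) and without replicate 3 (0.81). The call in PHYD-YFP/abcde after 1 h R was lost without replicate 3 (0.93). In aBcde the difference passed without replicate 2, in darkness (1.19, against 0.64 with it) and after 24 h R (1.13, against 0.96), and in the two-transgene line it passed without replicate 1 after 1 h R (1.10, against 0.84) and without replicate 3 after 24 h R (1.02, against 0.93). After 24 h R both of these lines also passed in limma on quantile-normalized values (1.04 and 1.03).

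SOT16, the indolic counterpart of SOT18 and 80.5% identical to it in coding sequence, was the more abundant transcript. SOT18 was at 5.51% to 37.7% of the SOT16 CPM at 27 °C (median 13.2%) and 7.71% to 57.1% at 17 °C (median 18.7%). SOT16 rose at 27 °C in 14 of 15 comparisons. Per kb of transcript, the median of the 5 line means after 24 h R was 7.74 CPM for SOT18 and 55 CPM for SOT16 at 27 °C, and 3.49 CPM for SOT18 and 21.6 CPM for SOT16 at 17 °C. On the same per-kb scale MYB28 had 1.03 CPM at 27 °C and 7.55 CPM at 17 °C after 24 h R. SOT18 overlaps its neighbour AT1G74088 by 9 bases on the same strand, a gene with 3916 counts in all.

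Over the 30 group means of log2 CPM, MYB28 and SOT18 had a Pearson r of -0.45. The groups share lines, temperatures and depth, so correlations over them are given as a description. The 5 genes most like the mean pattern of the 2 were AT5G11070 (r 0.89), AT4G16980 (0.88), AT3G19030 (0.86), NUDT2 (0.85) and AT1G70280 (0.85). Since the 2 members run against each other, likeness to each alone was added after the data were seen. The gene most like MYB28 was AT4G34220 (r 0.97) and that most like SOT18 was AT3G20300 (r 0.95). Among the listed genes, MYB28 was most like APR2 (r 0.93), an APS reductase of sulfate assimilation, and LHCB1.3 (r 0.90), and SOT18 was most like IGMT1 (r 0.89), an indole glucosinolate methyltransferase, and MYC3 (r 0.88).

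The other aliphatic genes likewise split into those that could be tested and those with too few counts. Of 17 listed genes, 16 were in the table and 8 could be tested. The chain elongation and transport genes MAM3 (50 counts), IPMI2 (125), IPMI1 (128), IMD1 (247) and BAT5 (133) had too few counts for the test. So did the conjugating GSTF11 (7) and the S-oxygenases FMO GS-OX2 (96) and FMO GS-OX3 (368). They were not all near 0, since FMO GS-OX3 reached 58 counts in a library and had 5 or more in 18. IMD1 reached 25 counts and had 5 or more in 17 libraries. The tested genes were IIL1 with 205866 counts, BCAT3 with 51500, GSTU20 with 22779, UGT74C1 with 8754, SOT17 with 5095, FMO GS-OX4 with 117699, FMO GS-OX5 with 40624 and AOP3 with 1015. IIL1 and BCAT3 are also known to serve leucine and other branched-chain amino acid synthesis.

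After 24 h R, 5 of these 8 rose in at least 1 comparison and none fell. Over genes and comparisons, 21 of 80 tests were rises, where 2.91% to 12% of all genes rose in a single comparison. The share of all genes that rose in at least 1 comparison was not computed. UGT74C1, a glucosyltransferase of the core pathway, rose in 9 of 10 comparisons (log2 fold changes 0.79 to 3.79). In the two-transgene line at 17 °C it was at 18.8, 21.4 and 25.3 CPM after 24 h R, against 0.505, 1.87 and 2.34 CPM in darkness (log2 fold change 3.79, SE 0.37, edgeR adjusted p 1.18e-13). GSTU20, a glutathione transferase, rose in 8 of 10 (0.35 to 1.93). In aBcde at 17 °C it was at 45.0, 48.9 and 41.9 CPM after 24 h R, against 11.5, 12.6 and 11.6 CPM in darkness. BCAT3 rose in 1 (0.26 to 1.01).

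**Figure D4:**
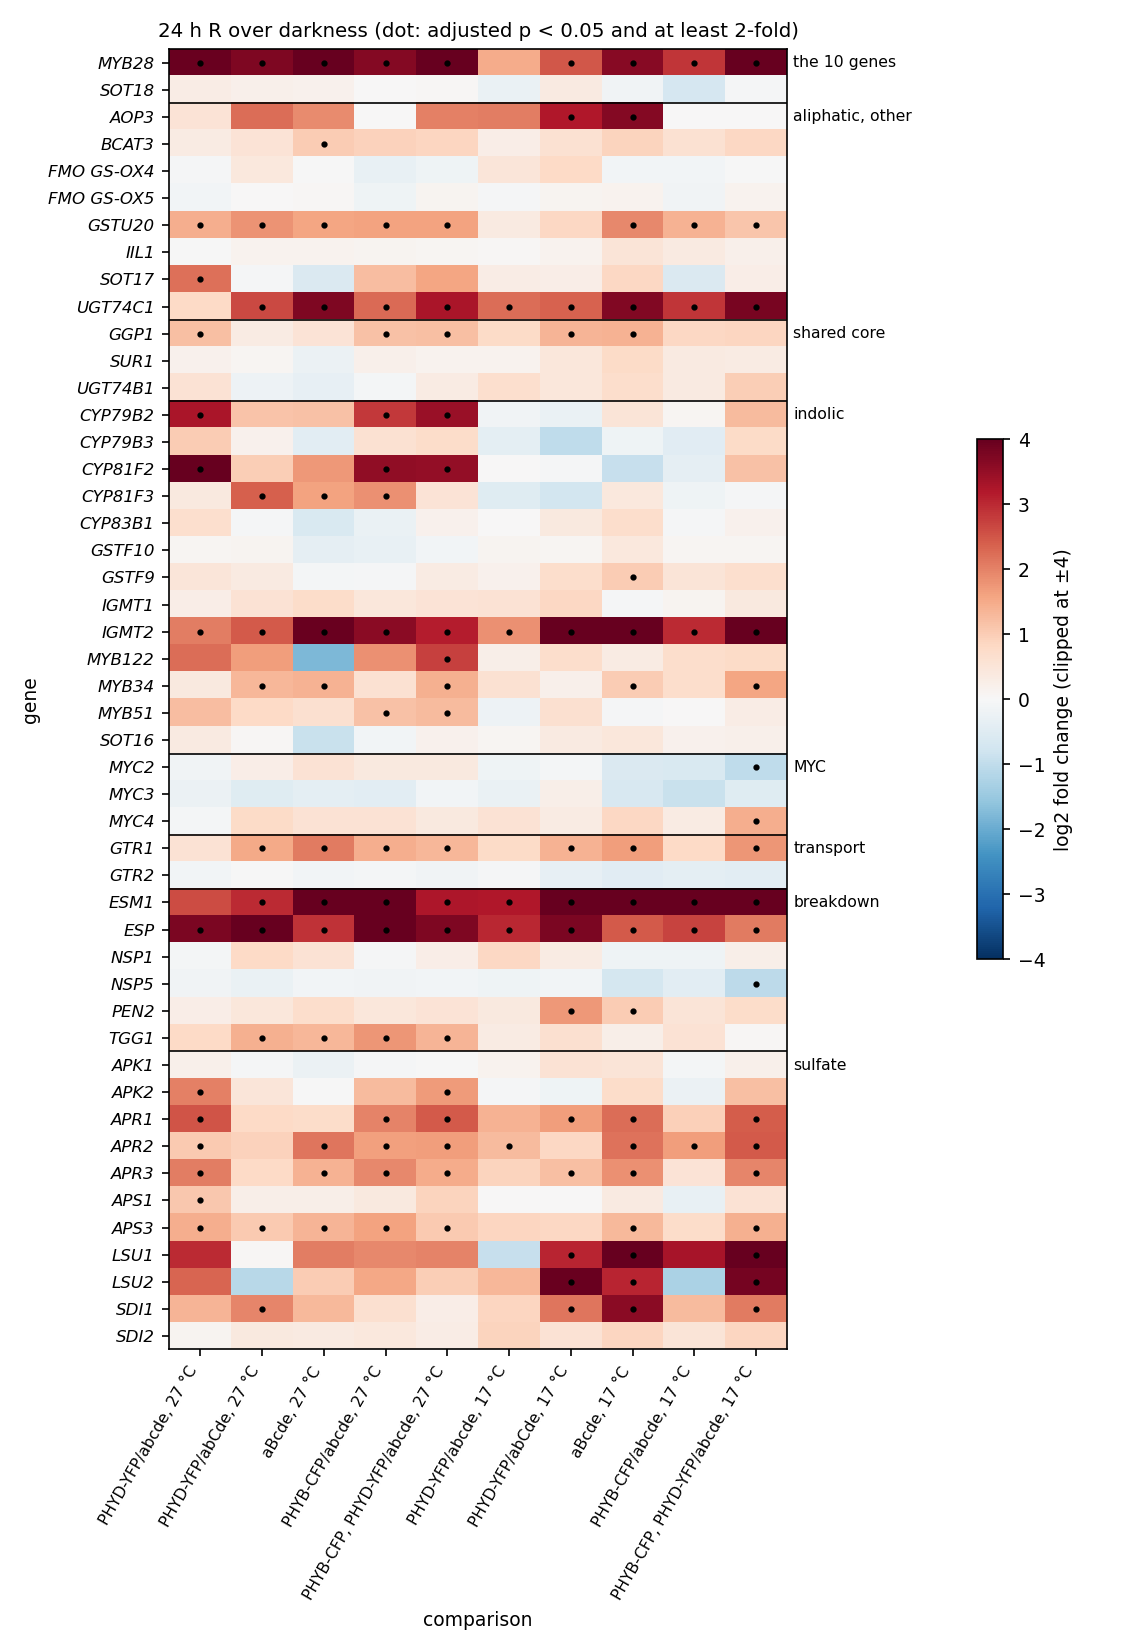
Log2 fold change of 24 h R over darkness (colour, clipped at 4 either way) for the 10 genes where tested and the listed genes of related pathways (y axis) in 5 lines at 27 °C and 17 °C (x axis); a dot marks a call. MYB28 has a dot in 9 of 10 columns, UGT74C1 in 9 and GSTU20 in 8, and SOT18 in none.

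AOP3, which makes hydroxyalkyl side chains and is known to be active in Ler, differed in level between lines. It had 694 counts in aBcde, 239 in PHYD-YFP/abCde and 77 in PHYD-YFP/abcde, but 4 in PHYB-CFP/abcde and 1 in the two-transgene line, over 18 libraries each. At 17 °C it rose after 24 h R in aBcde, with 8.50, 8.56 and 11.3 CPM against 0.366, 1.29 and 0.552 CPM in darkness (log2 fold change 3.69, edgeR adjusted p 0.00263), and in PHYD-YFP/abCde (3.20, adjusted p 0.0133). AOP3 was near 0 in both lines with PHYB-CFP whatever the light, and in darkness at 17 °C it had 0 counts in the 3 libraries of PHYB-CFP/abcde, against 7, 21 and 11 counts in aBcde (edgeR adjusted p 0.0398). SOT17, a close copy of SOT18 (78.9% identical), rose in 1 comparison, PHYD-YFP/abcde at 27 °C, with 30.3, 3.63 and 1.43 CPM after 24 h R against 1.28, 2.87 and 3.52 CPM in darkness, and without replicate 1 its log2 fold change was -0.33.

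That replicate is 1 of 3 libraries at 27 °C and 24 h R that stood apart in indolic and shared genes. CYP79B2, which makes indole-3-acetaldoxime, was at 428 CPM in replicate 1 of PHYD-YFP/abcde (13.4 and 16.4 in the others), 210 CPM in replicate 2 of PHYB-CFP/abcde (11.6 and 50.8) and 295 CPM in replicate 1 of the two-transgene line (17.0 and 11.9). In the same 3 libraries SOT16 was at 199, 114 and 130 CPM and SOT17 at 30.3, 19.7 and 21.9 CPM. SOT18 was at 11, 13.2 and 10.5 CPM there, the highest of each group, and MYB28 at 0.52, 2.43 and 0.987 CPM. The part of these libraries in the calls at 27 °C was checked by leaving them out. Without them, an alternative chosen after seeing the data, MYB28 after 24 h R over darkness in PHYD-YFP/abcde at 27 °C no longer passed (log2 fold change 3.74, edgeR adjusted p 0.0971), nor did the lower level at 27 °C than at 17 °C in PHYB-CFP/abcde after 24 h R (-1.16, adjusted p 0.0906), and no call of SOT18 was lost. SOT17 in PHYD-YFP/abcde at 27 °C was then at -0.01 on the log2 scale. Counted over genes and lines, rises at 27 °C over 17 °C after 24 h R numbered 17 without these libraries, against 28 with them, for the indolic genes, 2 against 7 for the sulfate genes and 1 against 4 for the shared core. Rises after 24 h R over darkness numbered 24 without them, against 28 with them, for the indolic genes and 32 against 41 for the sulfate genes.

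In related pathways after 24 h R, 8 of 13 tested indolic genes rose in at least 1 comparison and none fell. Over genes and comparisons, rises made up 28 of 130 indolic tests, 41 of 110 sulfate tests and 25 of 60 breakdown tests. In a single comparison 2.91% to 12% of all genes rose. The share of all genes that rose in at least 1 comparison was not computed. IGMT2 rose in 10 of 10 (log2 fold changes 1.83 to 5.67), a call that was lost in PHYD-YFP/abcde at 27 °C without the 3 libraries, and MYB34, a regulator of the indolic genes, in 5. Of 11 genes of sulfate assimilation and sulfur deficiency, 9 rose and none fell, among them APR2 in 8 comparisons, APR3 and APS3 in 7 each and APR1 in 6. Of 6 tested breakdown genes, 4 rose and 1 fell. The specifier protein gene ESP rose in 10 (2.08 to 6.88), its modifier ESM1 in 9 (2.60 to 7.74) and the myrosinase gene TGG1 in 4, and NSP5 fell in 1. The glucosinolate importer GTR1 rose in 7 of 10 (0.59 to 2.08). The median log2 fold change of the 8 aliphatic genes was 0.18 to 1.22 over the 10 comparisons and that of the sulfate genes 0.48 to 1.95, against -0.015 to 0.015 for all genes tested. After 1 h R, FMO GS-OX4 was the only one of these 8 aliphatic genes to rise, in PHYD-YFP/abCde at 17 °C (1.05). That call was lost without replicate 3. Among the 13 indolic genes, 6 rose and 1 fell in at least 1 comparison, with 8 rises and 1 fall in 130 tests. APR3 rose in 4 of 10 comparisons, the only rises in 110 sulfate tests. The MYC genes had 1 rise in 30 tests and the breakdown genes 1 fall in 60. In a single comparison at 1 h, 0.00483% to 2.89% of all genes rose and 0.029% to 4.79% fell.

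With temperature, the aliphatic genes split in direction. GSTU20 fell at 27 °C in 15 of 15 comparisons (log2 fold changes -2.73 to -1.27). In aBcde in darkness it was at 2.94, 3.13 and 1.98 CPM at 27 °C, against 11.5, 12.6 and 11.6 CPM at 17 °C. BCAT3 fell in 4, 1 and 2 of 5 lines in darkness, after 1 h R and after 24 h R, and UGT74C1 in 1, 0 and 2. SOT17 rose in 3, 5 and 3, by up to 4.32 on the log2 scale in PHYB-CFP/abcde after 24 h R, with 4.28, 19.7 and 4.20 CPM at 27 °C against 0.483, 0.588 and 0.328 CPM at 17 °C. In irradiated seedlings at 24 h, AOP3 fell in aBcde (-2.49) and PHYD-YFP/abCde (-3.34). Of the 8 aliphatic genes, 2 rose and 3 fell in at least 1 line in darkness, and 1 rose and 4 fell after 24 h R. Over genes and lines, 4 of 40 tests were rises and 10 were falls in darkness. After 24 h R, 3 of 40 were rises and 11 were falls. Per line, 9.17% to 13.1% of all genes rose and 13.3% to 16.6% fell in darkness. After 24 h R, 10.2% to 11.7% of all genes rose and 11% to 13% fell. The share of all genes called in at least 1 line was not computed.

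**Figure D5:**
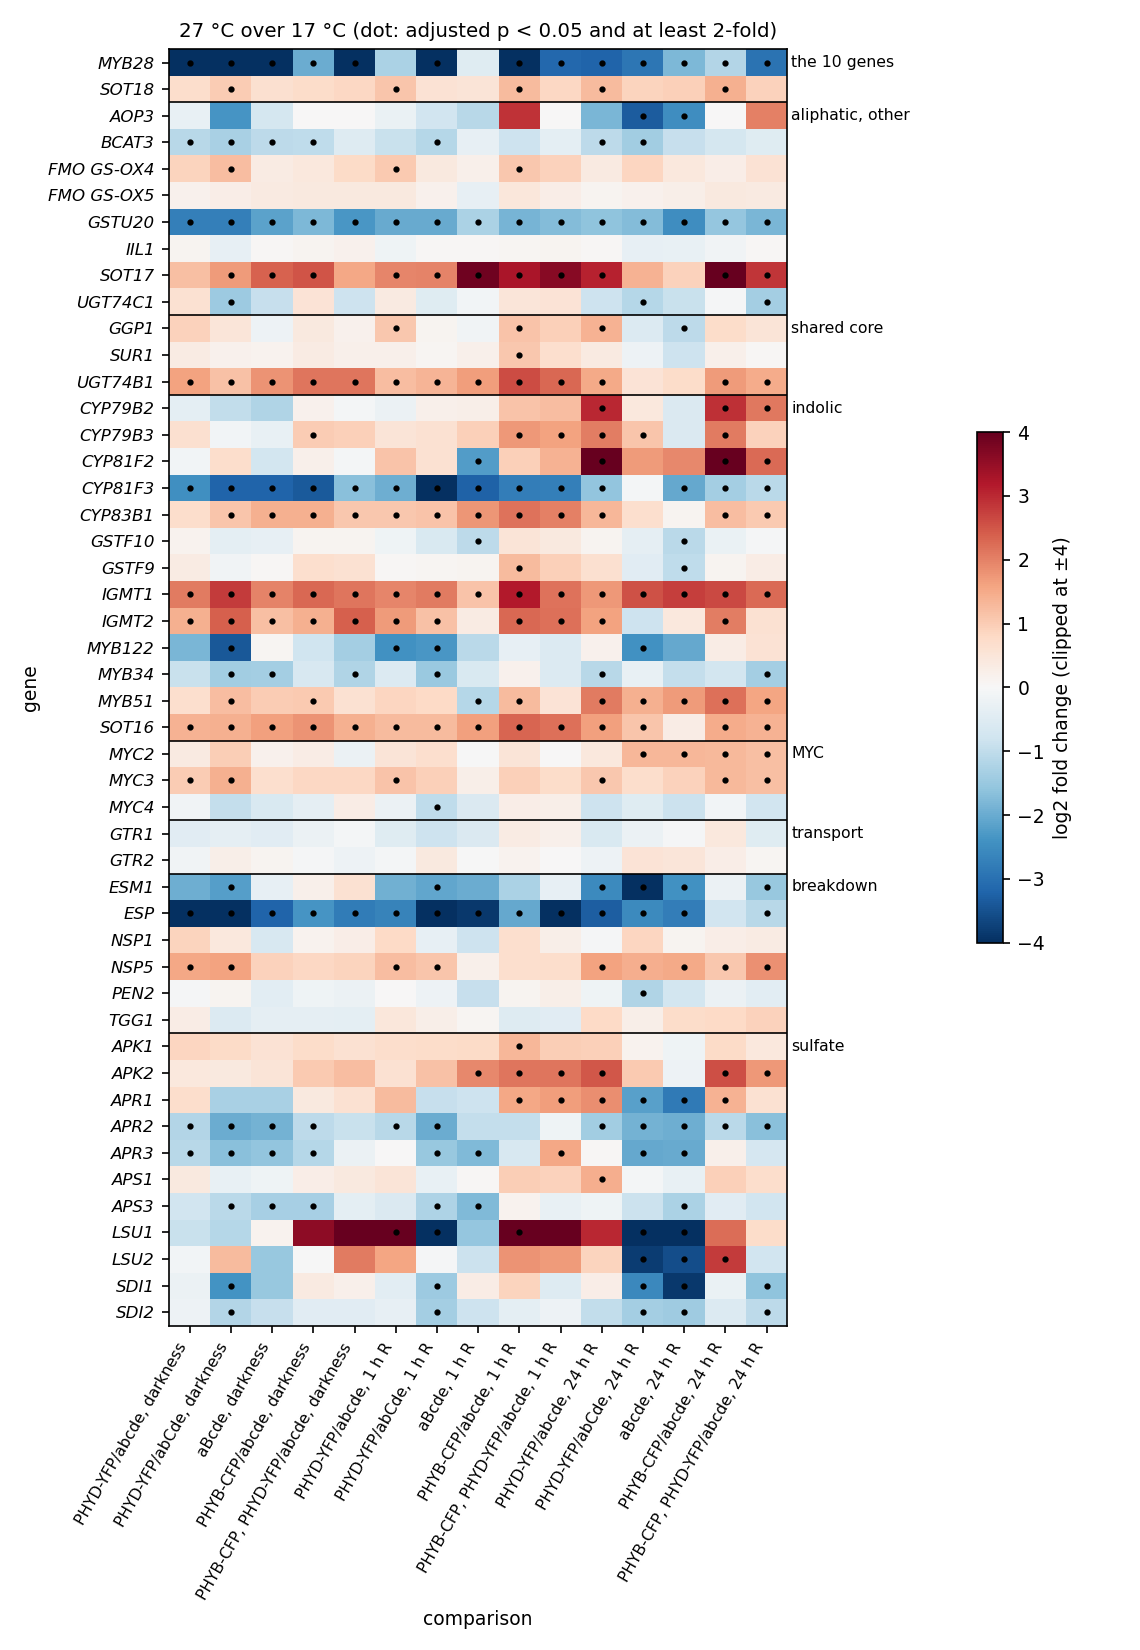
Log2 fold change of 27 °C over 17 °C (colour, clipped at 4 either way) for the same genes (y axis) in 5 lines in darkness, after 1 h R and after 24 h R (x axis); a dot marks a call. MYB28 and GSTU20 are lower at 27 °C in all 15 columns, and SOT18, SOT17 and IGMT1 are higher in all 15.

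Among the indolic genes, IGMT1 rose in 15 of 15 comparisons, SOT16 in 14 and CYP83B1, an aldoxime-metabolising enzyme, in 12, whereas CYP81F3, an indole ring hydroxylase, fell in 14 and MYB34 in 6. In the shared core, the glucosyltransferase gene UGT74B1 rose in 13 of 15. After 24 h R, the calls of SOT16 and UGT74B1 in PHYD-YFP/abcde and the two-transgene line were lost without the 3 libraries high in CYP79B2. Of the 11 sulfate genes, 5 fell and none rose in darkness, and 8 fell and 4 rose after 24 h R in at least 1 line. Over genes and lines, 13 of 55 sulfate tests were falls in darkness, and 20 were falls and 7 were rises after 24 h R. The shares of all genes are those given for the aliphatic genes. APR2 fell in 11 of 15. Among breakdown genes, ESP fell in 14 of 15 and NSP5 rose in 9. The importers GTR1 and GTR2 passed in none. MYC3 rose in 6 of 15 and MYC2 in 4 of 5 after 24 h R.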

How the data were processed

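Poly(A) RNA of whole seedlings was sequenced in 90 libraries. The authors trimmed reads with Trimmomatic, mapped them with STAR to TAIR10 and counted them per gene with htseq-count, and deposited raw read counts; the labels name FastQC, STAR, HTSeq and edgeR. The strand setting of the counting is not given in the sources used here, so overlapping and antisense genes are uncertain. The table held 28775 genes, of which 279 organelle genes and 627 coding for tRNA or rRNA were dropped. A gene was tested when 23 or more libraries (25%) had 5 or more counts, which held for 20695 genes. All 90 libraries entered a single fit of 30 group means with TMM scaling and the quasi-likelihood test of edgeR 4.0.16 in R 4.3.3, with Benjamini-Hochberg adjustment within each of 58 contrasts. Levels are CPM with TMM-scaled totals (factors 0.8653 to 1.102), and a prior count of 2 was used for correlations. The scripts were tested on simulated counts.

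The members and gene lists were chosen with earlier results of these data known. Beside the 10 members, up to 4 genes per list and kind of comparison with the largest change among those called were named, with the 5 genes most like the members; further list genes were named for their counts after their values were seen. The labels do not say that replicates came from separate cultures, so p-values measure the spread between these samples, which may be technical. The replicate numbers do not pair samples. Alternatives were DESeq2 1.42.0, RLE scaling, quantile-normalized values in limma 3.58.1, no low-count filter, no fold threshold, subsets of libraries and replicate blocks. Positions and sequences are from RefSeq's TAIR10.1, the updated release of the authors' build.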

Additional observations from a re-analysis of the deposited data

Results flagged for a closer look

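Each value here is a difference between 2 responses to 24 h R on the log2 scale, picked out because a test of that difference in edgeR passed. In a single comparison, 0.314% to 3.99% of all genes differed so in 1 direction between temperatures, and 0% to 2.13% between lines. Near the limit in edgeR were GSTF9 (adjusted p 0.0498), IGMT2 in the two-transgene line (0.0491 and 0.0466), LSU2 between lines (0.0452, SE 1.61) and CYP81F2 (0.0437, SE 1.3). At 27 °C, the 24 h R groups of PHYD-YFP/abcde, PHYB-CFP/abcde and the two-transgene line each include a library high in CYP79B2. Among the 10 genes, only the response of MYB28 in aBcde was such a case, larger at 27 °C than at 17 °C by 3.45.

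Among the other aliphatic genes, the response of GSTU20 at 17 °C differed by -1.10 in PHYD-YFP/abCde relative to aBcde, and that of UGT74C1 at 27 °C by 1.85 in PHYD-YFP/abCde relative to PHYD-YFP/abcde.

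Of the differences between 27 °C and 17 °C among indolic genes, CYP81F2 had 3.92 in PHYB-CFP/abcde, CYP81F3 had 2.01 in PHYB-CFP/abcde and 3.12 in PHYD-YFP/abCde, GSTF9 had -1.09 and SOT16 had -1.35 in aBcde, and MYB34 had 1.10 in PHYD-YFP/abCde. IGMT2 had -1.79 in the two-transgene line and -3.22 in PHYD-YFP/abCde. At 17 °C, the IGMT2 response differed by 1.95 in the two-transgene line relative to PHYB-CFP/abcde and by 3.84 in PHYD-YFP/abCde relative to PHYD-YFP/abcde.

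Among the breakdown genes, the TGG1 response was larger at 27 °C than at 17 °C by 1.3 in the two-transgene line, 1.17 in PHYB-CFP/abcde and 1.10 in aBcde. The PEN2 response differed by -1.29 between 27 °C and 17 °C in PHYD-YFP/abCde, and at 17 °C by 1.34 in PHYD-YFP/abCde relative to PHYD-YFP/abcde.

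The MYC2 response was larger at 27 °C by 1.41 in the two-transgene line and 1.14 in aBcde. Among the sulfate genes, the APR2 response in PHYD-YFP/abCde differed from that in aBcde by -1.21 at 27 °C and -1.35 at 17 °C. The LSU2 response differed by 5.10 in the two-transgene line relative to PHYB-CFP/abcde at 17 °C and by -5.06 between 27 °C and 17 °C in PHYD-YFP/abCde.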

How the results depend on the processing

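The count of MYB28 rises after 24 h R over darkness was 9 in 10 comparisons, and 8 when any 1 replicate number was left out. With no fold threshold, 1 fall was added (SOT18 in PHYB-CFP/abcde at 17 °C). After 1 h R the count of rises was 1, and 0 in fits to each comparison's own libraries, or 0 to 1 with a replicate left out. For 27 °C over 17 °C in darkness, the count of rises was 1, and 0 under DESeq2, RLE scaling, no filter or own libraries, 5 with no fold threshold, and 0 to 2 with a replicate left out; falls numbered 4 to 5 there. After 1 h R, rises numbered 2, 4 with no fold threshold and 1 to 3 with a replicate left out. After 24 h R, rises numbered 2, 4 in limma on quantile-normalized values, 5 with no fold threshold and 2 to 3 with a replicate left out, and falls numbered 4 with any replicate left out. The 1 difference between the responses at 27 °C and 17 °C, in aBcde, became 0 in limma, in the fit of 54 libraries of 3 lines and without aBcde replicate 1 of 27 °C and 24 h R (chosen after seeing the data), and 0 to 1 with a replicate left out. The cause of these shifts was not tested.

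The replicate numbers did not pair the samples: of 60 correlations between same-numbered samples, 4 were over 0.1, and 14 samples of 60 correlated best with their own number. With either replicate block, rises after 24 h R numbered 10, since MYB28 in PHYD-YFP/abcde at 17 °C passed (log2 fold change 1.53 and 1.6, edgeR adjusted p 0.0445 and 0.0322), and no other call of MYB28 or SOT18 changed. Of the 5 genes most like the members, 2 remained with Spearman's rho, 3 with a prior count of 5, and 0 for likeness to MYB28 or SOT18 alone.

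Values that changed sign came from leaving out libraries high in CYP79B2. In PHYD-YFP/abcde at 27 °C, 24 h R over darkness without replicate 1 gave log2 fold changes of -0.33 for SOT17, -0.53 for GGP1, -0.19 for CYP79B2, -0.21 for APS1, -0.48 for APK2 and -0.39 for APR1, and without the 3 libraries -0.0072, -0.32, -0.078, -0.17, -0.33 and -0.20 for the same genes in that order (up to 3.03, 2.05, 4.11, 1.49, 2.79 and 3.20 without replicate 3). In the two-transgene line, APK2 was at -0.16 without replicate 1 (2.11 without replicate 2) and -0.36 without the 3 libraries, and MYB51 at -0.12 without the 3. For 27 °C over 17 °C after 24 h R, PHYD-YFP/abcde had -0.15 for GGP1, -0.33 for CYP79B2 and -0.84 for APR1 without replicate 1 (1.87, 3.56 and 2.50 without replicate 3), and -0.15, -0.34 and -0.86 without the 3 libraries. APR1 in PHYB-CFP/abcde was at -0.20 without replicate 2 (1.84 without replicate 1) and -0.17 without the 3. Without the 3 libraries the two-transgene line had -0.79 for CYP79B2, -1.04 for CYP81F2 and -0.31 for APK2. Depth limits the 8 untested genes, with 97 counts together; without the filter on low counts, only CYP83A1 passed in 1 comparison (24 h R in aBcde at 17 °C).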
